A study of Arabidopsis thaliana with 6 samples.

Results

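GSA1 (AT5G63570) and CHLM (AT4G25080) are nuclear genes of chlorophyll synthesis, one at an early and one at a late step of the pathway. Their probe sets were found by gene number and symbol in the array annotation, 1 probe set for each (247392_at for GSA1 and 254105_at for CHLM), so that 2 of 13286 genes with a named probe set are described here. The study compared bundle sheath cells (BSCs), the cells that wrap the leaf veins, with the mesophyll cells (MCs) around them in Arabidopsis thaliana leaves. From 3 BSC and 3 MC samples of 20 hand-picked protoplasts each, RNA was amplified and hybridized to Affymetrix ATH1 microarrays. The numbers in the labels are kept as array names: 3, 5 and 7 for the BSC arrays, and 4, 6 and 8 for the MC arrays. BSCs were recognized by green fluorescent protein (GFP), driven by the scarecrow (SCR) promoter, and MCs by its absence. All samples came from untreated SCR:GFP plants of ecotype Landsberg, and the protoplasts were taken from leaf pieces without the abaxial epidermis. The batches of each cell type are named as biological replicates, and how many plants stand behind a batch is not given in the sources used here.

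Chlorophyll is built from glutamate through 5-aminolevulinic acid (ALA), the precursor of all plant tetrapyrroles. GSA1 encodes a glutamate-1-semialdehyde aminomutase, the enzyme that completes ALA. ALA is then turned into protoporphyrin IX, where the pathway divides. One branch inserts iron and leads to haem, and the other inserts magnesium and leads to chlorophyll. CHLM encodes the methyltransferase that acts on magnesium protoporphyrin IX just after the magnesium has been inserted. ALA formation therefore serves both branches, while the CHLM step belongs to chlorophyll alone, and both steps take place in the plastid.

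The values are the log2 of the normalized raw expression level, log2(NREL), as the authors deposited them. BSC array 7 stood apart from the others, since only 78 of its probe sets reached a log2(NREL) of 5, while 406 to 1157 did so on the other 5 arrays. BSC array 3 and MC array 6 had the most, 1147 and 1157. The 3-prime control probe set of GAPDH exceeded its 5-prime control by 0.35 on the log2 scale on BSC array 7 and by 1.10 to 2.39 on the other arrays. Of 20 cell type markers listed for this comparison only 2 had a probe set named in the annotation used here, which names 1 gene for 13513 of the 22746 probe sets. The bundle sheath markers SCR, SULTR2;2 and MYB76 were not among them, so the BSC label was not set against its markers here. RCA, the activase of Rubisco and a marker of photosynthetic cells, had a log2(NREL) of 8.34, 7.57 and 3.66 on BSC arrays 3, 5 and 7 and of 6.69, 8.98 and 6.15 on MC arrays 4, 6 and 8. FAMA, a guard cell regulator, stayed between 1.81 and 2.35 on BSC arrays and between 1.83 and 1.98 on MC arrays, while the array medians were 1.88 to 2.06.

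GSA1 had the higher mean in BSCs and CHLM the higher mean in MCs, and neither difference passed the test on the deposited values. GSA1 had a log2(NREL) of 7.76, 8.30 and 5.0 on BSC arrays 3, 5 and 7, against 5.63, 6.04 and 4.82 on MC arrays 4, 6 and 8. BSC arrays 3 and 5 were above every MC array, whereas BSC array 7 fell among the MC arrays. The mean was 7.02 ± 1.77 in BSCs and 5.50 ± 0.62 in MCs (SD, n = 3 arrays each). This is a log2 fold change, BSC minus MC, of 1.52 (standard error 0.91), or 2.87-fold, with a 95% confidence interval from -0.72 to 3.76. The test was limma, which fits each probe set and steadies its variance with that of all others, and a gene was called at an unadjusted p under 0.05 with an absolute fold change of at least 1.5, the thresholds of the study. GSA1 had an unadjusted p of 0.147 and, after Benjamini-Hochberg adjustment over 22746 probe sets in limma, an adjusted p of 1. The values are relative to the whole signal of an array, so fewer transcript-carrying cells in a batch and less transcript per cell cannot be told apart.

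The call for GSA1 depended on BSC array 7 and on how the arrays were scaled. Without BSC array 7 the log2 fold change was 2.53 (standard error 0.41), with an unadjusted p of 0.00192 and an adjusted p of 0.708 in limma, and GSA1 passed the thresholds. In that comparison 1.84% of all probe sets were called in either direction and 1.47% higher in BSCs. With all 6 arrays 0.501% were called in either direction and 0.141% higher in BSCs. Quantile normalization, which gives every array the same distribution, also brought a call. The log2 fold change was then 1.80 (standard error 0.45), with an unadjusted p of 0.00805 and an adjusted p of 1 in limma. Under this setting 1.13% of all probe sets were called in either direction and 0.317% higher in BSCs. The quantile normalized log2 values of GSA1 were 6.48, 7.74 and 7.55 on BSC arrays 3, 5 and 7, against 6.13, 4.88 and 5.36 on MC arrays 4, 6 and 8. After this step each BSC array lay above each MC array. Array weights give less weight to arrays that deviate from their group. With them the log2 fold change was 2.76, and GSA1 was called (unadjusted p of 0.00207, adjusted p of 0.194 in limma). That fit called 3.89% of all probe sets in either direction and 2.63% higher in BSCs. The weight was 6.83 for BSC array 5, where GSA1 was highest, and 0.342 and 0.339 for BSC arrays 3 and 7. The weighted BSC mean thus rested mostly on BSC array 5. Leaving out any one of the other 5 arrays gave log2 fold changes of 0.88 to 1.79 and no call.

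CHLM varied more within each cell type than between them. It had a log2(NREL) of 6.39, 3.78 and 3.13 on BSC arrays 3, 5 and 7, against 3.84, 7.37 and 4.40 on MC arrays 4, 6 and 8. One array of each cell type, BSC array 3 and MC array 6, was far above the other arrays of its own type, and the cell types overlapped. The mean was 4.44 ± 1.73 in BSCs and 5.21 ± 1.90 in MCs (SD, n = 3 each). The log2 fold change was -0.77 (standard error 1.24), with a 95% confidence interval from -3.83 to 2.29 and an unadjusted p of 0.558 (adjusted p of 1 in limma). The direction turned without MC array 6, where it was 0.31, and it was -0.12 without BSC array 7 and -1.75 without BSC array 3. After quantile normalization it was -0.83 (standard error 0.57) and did not pass (unadjusted p of 0.200). BSC array 3 and MC array 6 were the 2 arrays with the most probe sets at 5 or above. The part of these differences between arrays in the result was not tested.

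**Figure D1:**
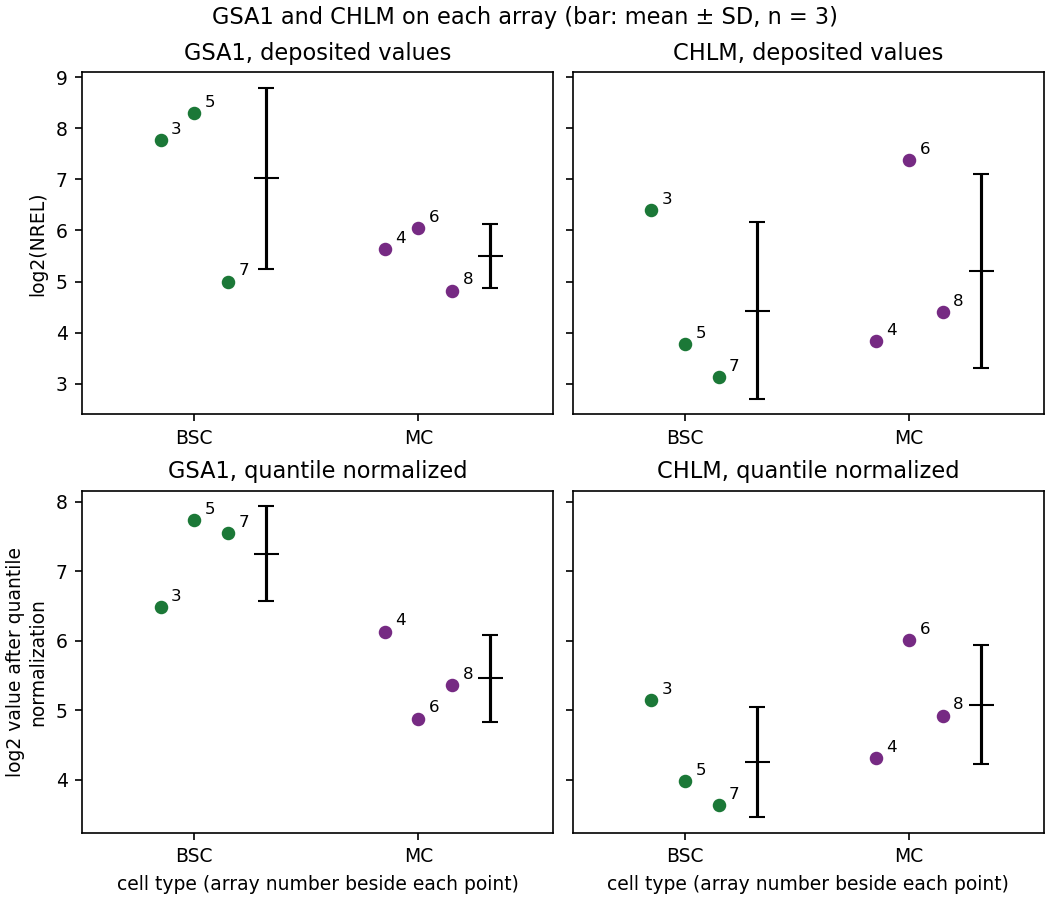
Log2 values of GSA1 (left) and CHLM (right) on each of the 6 arrays, as deposited (top, log2(NREL)) and after quantile normalization (bottom). Points are arrays with their numbers, and bars give the mean ± SD of 3 arrays; deposited GSA1 values of BSC array 7 (5.0) fall among those of the MC arrays (4.82 to 6.04), and after quantile normalization GSA1 is at 6.48 to 7.74 on BSC arrays and at 4.88 to 6.13 on MC arrays.

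The rank of a gene within its own array does not change with the scaling of that array. By rank GSA1 separated the cell types on all 6 arrays. On BSC arrays 3, 5 and 7, 198, 66 and 78 probe sets of 22746 had a higher value than GSA1, against 269, 668 and 479 on MC arrays 4, 6 and 8. On BSC array 7, where the value of GSA1 was the lowest of the BSC arrays, its rank was close to that on BSC array 5. As percentiles these ranks were 99.1 to 99.7 in BSCs and 97.1 to 98.8 in MCs. The mean percentile differed by 1.57 points, and the exact permutation test over arrays (2-sided) gave p = 0.1, the smallest that 3 arrays against 3 allow. Of all probe sets, 3.96% had percentiles that were higher on every BSC array than on every MC array, and 8.02% were separated in either direction, so this separation was also found for many other genes.

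By rank CHLM did not separate the cell types. On BSC arrays 3, 5 and 7, 558, 1259 and 1631 probe sets were above it, against 1007, 295 and 648 on MC arrays 4, 6 and 8. Its percentile was 97.5, 94.5 and 92.8 in the 3 BSC samples and 95.6, 98.7 and 97.2 in the 3 MC samples. BSC array 3 lay among the MC arrays, and BSC arrays 5 and 7 lay below all of them. The mean percentile was 2.19 points lower in BSCs (exact permutation test, 2-sided, p = 0.3). Unlike its log2 value, this difference kept its sign whichever array was left out, at -3.50 to -1.14 points.

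**Figure D2:**
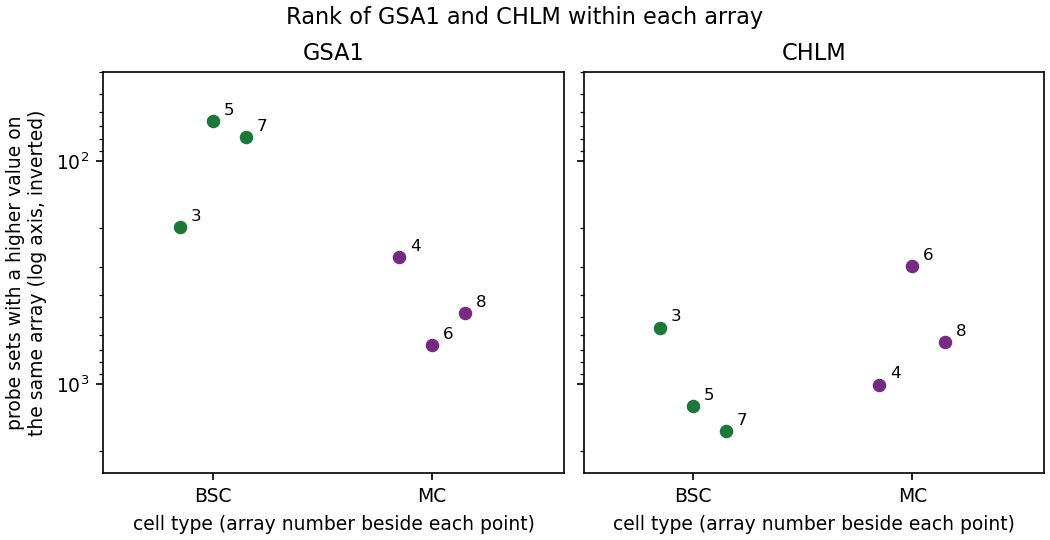
Number of probe sets with a higher value than GSA1 (left) or CHLM (right) on the same array, on an inverted log axis, so that a higher rank is further up. Points are arrays with their numbers; GSA1 is outranked by 66 to 198 probe sets on BSC arrays and by 269 to 668 on MC arrays, and CHLM by 558 to 1631 on BSC arrays and by 295 to 1007 on MC arrays.

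Whether the early and the late step differed in how they changed between the cell types was examined within arrays. The value of one probe set cannot be read against that of another, because probes differ in their binding, so only the change of the difference counts. CHLM minus GSA1 was -1.36, -4.52 and -1.87 on BSC arrays 3, 5 and 7, against -1.79, 1.33 and -0.42 on MC arrays 4, 6 and 8. The 2 cell types overlapped through BSC array 3 and MC array 4. The mean difference was 2.29 lower in BSCs on the log2 scale, at -2.58 ± 1.69 in BSCs and -0.29 ± 1.56 in MCs (SD, n = 3 each), with p = 0.2 in an exact permutation test (2-sided). Leaving out each array in turn gave -3.04 to -1.32. A difference between the 2 steps in their change between cell types was therefore not shown.

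Over the 6 arrays, no correlation between GSA1 and CHLM passed the test, and its sign was positive in the deposited values and negative in rank. Pearson's r of the log2(NREL) values was 0.25 (exact permutation p = 0.651) and Spearman's rho 0.14 (p = 0.803). Without BSC arrays 3 and 5, the arrays farthest from the median of GSA1, r was 0.73. Pearson's r of the within-array percentiles was -0.82 (exact permutation p = 0.0472) with a rho of -0.77 (p = 0.103), and r was -0.86 after quantile normalization (p = 0.0347). Adjusted over these 6 correlations, the smallest p was 0.142, so none passed. The arrays farthest from the median of GSA1 were others on these scales: r was -0.67 for percentiles without MC arrays 6 and 8, and -0.72 after quantile normalization without BSC array 5 and MC array 6. With each cell type centred on its own mean, it was 0.50 for the deposited values, -0.77 for percentiles and -0.94 after quantile normalization. The sign was thus positive in the deposited values and negative by percentiles and after quantile normalization. The cause of this change was not tested.

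Other genes of tetrapyrrole metabolism were taken from a list of 65, of which 17 had a named probe set, GSA1 and CHLM among them. Of these 17, 0 were called higher and 1 was called lower in BSCs, where 0.141% of all probe sets were called higher and 0.361% lower. The one called was AT1G44000, listed among genes of chlorophyll breakdown, with 2.90, 2.94 and 3.25 on BSC arrays 3, 5 and 7, against 3.27, 3.96 and 3.67 on MC arrays 4, 6 and 8. Each BSC array was below each MC array, with BSC array 7 and MC array 4 nearly level. Of all probe sets, 6.0% had no overlap in either direction. Its log2 fold change was -0.60 (standard error 0.21), with an unadjusted p of 0.0284 and an adjusted p of 1 in limma. Without BSC array 3, BSC array 5, MC array 6 or MC array 8 it did not pass (-0.59 to -0.44), nor did it after quantile normalization (-0.45) or in the methods' t-test. With array weights its fold change was under 1.5.

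In ALA formation, the other named genes were HEMA2 and HEMA3, for isoforms of glutamyl-tRNA reductase, the enzyme that acts just before GSA1. HEMA2 was at 3.06 ± 0.78 in BSCs and 3.25 ± 1.07 in MCs, and HEMA3 at 2.81 ± 0.28 in BSCs and 2.60 ± 0.21 in MCs (SD, n = 3 each), and neither passed. The other listed genes of this step, HEMA1 and GSA2 among them, were not analysed here. GSA2 encodes a second aminomutase, and cross-hybridization between both aminomutase transcripts was not tested.

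On the way from ALA to protoporphyrin, 5 of 10 listed genes were named and 0 passed. HEMB1, for ALA dehydratase, was at 3.50 ± 1.56 in BSCs and 3.78 ± 1.31 in MCs (SD, n = 3 each). HEME1 and HEME2, for uroporphyrinogen decarboxylase, had log2 fold changes of -0.34 (standard error 1.22) and -0.56 (0.29). HEME2 had no overlap between the cell types, at 2.52 to 2.73 on BSC arrays and 2.82 to 3.85 on MC arrays. Such a lack of overlap, in either direction, was found for 6.0% of all probe sets. HEMB2 and HEMF2 stayed at 1.55 to 2.18 on BSC arrays and 1.62 to 1.86 on MC arrays, below the array median except for HEMF2 on BSC array 7.

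In the chlorophyll branch, 6 of 17 listed genes were named, and all 6 had a lower mean in BSCs, with log2 fold changes of -1.24 to -0.17 and a median of -0.72. None of the 6 passed. LIL3:1 and LIL3:2, for light-harvesting-like proteins that stabilize enzymes of late chlorophyll synthesis, had -1.24 (standard error 1.13) and -1.12 (0.92). CHLP (AT1G74470), for the geranylgeranyl reductase that makes the side chain of chlorophyll, had -0.67 (1.33). PORB, a protochlorophyllide oxidoreductase, had -0.32 (0.20) and CHLI2, a subunit of the magnesium chelatase, -0.17 (0.12). CHLI2 was below the array median on every array, at 1.47 to 1.85. Without MC array 6 the median of the 6 was 0.02, with the BSC mean higher for 3 genes and lower for 3. With any other array left out all 6 stayed lower in BSCs, with medians of -1.44 to -0.29. All 6 also stayed lower after quantile normalization (median -0.74) and with array weights (-0.44). LIL3:1, with the most negative log2 fold change of the 6, was at 2.54, 2.00 and 2.02 on BSC arrays 3, 5 and 7. On MC arrays 4, 6 and 8 it was at 2.45, 6.07 and 1.77.

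Over all 17 named genes, 13 had a lower mean in BSCs and the median log2 fold change was -0.29. Of all 22746 probe sets, 45.9% had a lower mean in BSCs and the median was 0.01. GSA1 had the largest positive log2 fold change of the 17, and the next was HEMA3 with 0.21 (standard error 0.19). Without MC array 6, 11 of the 17 had a higher mean in BSCs and the median was 0.09, and without BSC array 7 the median was -0.05. Of the 17 genes, 3 had no overlap between the cell types (HEME2, PORB and AT1G44000), where 6.0% of all probe sets had none. SIRB, for an enzyme of sirohaem synthesis, and NOL, for a chlorophyll b reductase, had -0.17 (0.36) and 0.01 (0.28).

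**Figure D3:**
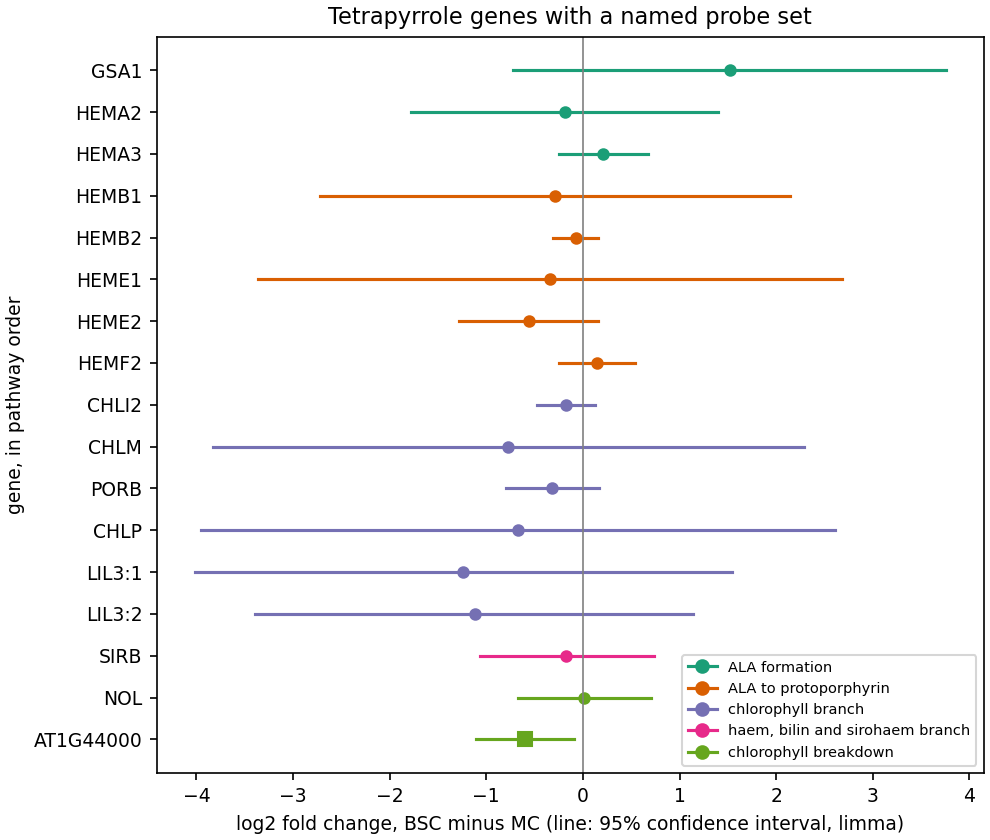
Log2 fold change, BSC minus MC, of the 17 tetrapyrrole genes with a named probe set, in pathway order from top to bottom and coloured by step; lines are 95% confidence intervals from limma. The square marks AT1G44000, the only one called, and GSA1 (1.52) is the rightmost point, while all 6 genes of the chlorophyll branch lie at -1.24 to -0.17.

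The array with the highest value was another for GSA1 than for CHLM and the other variable genes of the list. Of the 17 genes, 8 had an SD over the 6 arrays of at least 0.5. Of these 8, 7 were highest on MC array 6, and the exception was GSA1, which was highest on BSC array 5. Of all 3220 probe sets with such an SD, 41.6% were highest on MC array 6, 42.4% on BSC array 3 and 6.93% on BSC array 5. CHLP was at 6.24, 3.54 and 3.02 on BSC arrays 3, 5 and 7 and at 3.41, 7.39 and 4.01 on MC arrays 4, 6 and 8, highest on the same pair of arrays as CHLM, BSC array 3 and MC array 6. HEMA2, the enzyme step next to GSA1, had a Pearson's r over the 6 arrays of 0.97 with CHLM and of 0.39 with GSA1, and HEMB1 had 0.96 with CHLM and 0.42 with GSA1. RCA had an r of 0.81 with CHLM and 0.61 with GSA1. Over the 3219 other probe sets with an SD of at least 0.5, the median r was 0.71 with CHLM and 0.40 with GSA1. The r of HEMA2 and HEMB1 with GSA1 was thus near the median of these variable probe sets. With CHLM, 17.9% of these probe sets had an r of at least 0.9, so values as high as those of HEMA2 and HEMB1 were not rare. These correlations are descriptions over 6 arrays, which share differences in overall range.

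**Figure D4:**
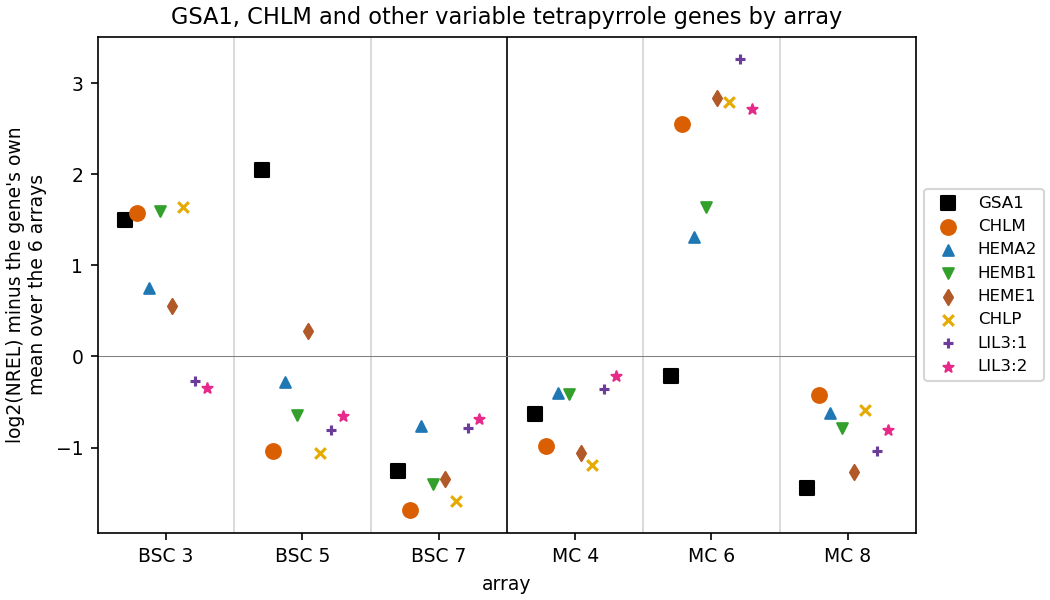
Log2(NREL) of GSA1, CHLM and the 6 other named tetrapyrrole genes with an SD over arrays of at least 0.5, each minus its own mean over the 6 arrays; BSC arrays are left and MC arrays right of the black line. GSA1 is highest on BSC array 5 (8.30 before centring), and the other 7 genes are highest on MC array 6.

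Among variable probe sets with 1 named gene, the one most like CHLM in log2 value over the 6 arrays was also of a chlorophyll synthesis gene. Among the 3219 other probe sets with an SD of at least 0.5, CHLP had the highest Pearson's r with CHLM of those with 1 named gene, 0.997, and no less than 0.994 with any one array left out. It was the second of all these probe sets, named or not, and with percentiles in place of values its r was 0.98, the eighth highest. The next were AT3G04840 (0.992), AT3G19970 (0.988), AT4G16720 (0.988) and AT4G03260 (0.987). A high correlation with CHLM was common, and 17.9% of the 3219 probe sets had an r of at least 0.9, or 3.48% by percentiles. The mean of all 5 was lower in BSCs, by 0.24 to 0.67, a direction that their choice by correlation with CHLM largely fixed. In limma 0 of them were called, where 0.501% of all probe sets were.

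Among probe sets with 1 named gene, the 5 most like GSA1 did not keep that likeness by rank. They were AT4G34450 (r = 0.973), AT5G17850, a sodium/calcium exchanger gene (0.971), AT5G16880 (0.971), AT1G08050 (0.969) and AT5G05010 (0.967). Among all 3219 probe sets, named or not, their places lay between 9 and 15, so others without a single named gene were more like GSA1. For example, AT5G16880 was at 6.40, 6.21 and 2.28 on BSC arrays 3, 5 and 7 and at 2.48, 3.06 and 2.31 on MC arrays 4, 6 and 8. The mean of all 5 was higher in BSCs, by 0.76 to 2.35, a direction that their choice by correlation with GSA1 largely fixed. In limma 0 of them were called, where 0.501% of all probe sets were. With percentiles in place of values the r of these 5 with GSA1 was -0.19 to 0.40. An r of at least 0.9 with GSA1 was reached by 2.73% of the 3219 probe sets, or by 0.342% by percentiles, fewer than with CHLM on both measures.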

How the data were processed

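Arrays of 3 BSC and 3 MC samples, each of 20 protoplasts, were used. Per the labels and the paper, the authors summarized their arrays by RMA (the robust multi-array average) in Partek Genomics Suite, version 6.6 in the submitters' processing notes and another in the paper, and deposited log2 values for each probe set. The distribution of these deposited log2 values differed between arrays; scanner files were not used here. Precision is limited by the number of arrays, and p values measure the spread between these batches, which may in part be technical.

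The 64 control probe sets were left out and 22746 were tested. A single gene was annotated for 13513 of them, and 13436 of these were matched to the TAIR10.1 gene table by gene number; another 503 had several genes and were not named. For genes with more than 1 probe set, that with the highest mean was taken. The genes, the list of 65 tetrapyrrole genes and the 20 markers were chosen with earlier results of these data known. By rule, the text names GSA1, its paralogue GSA2 and CHLM, the list members past the thresholds, up to 3 per step with the smallest p, and the 5 named probe sets most correlated with GSA1 and with CHLM. The other list members and markers in the text were added to account for them, and AT5G16880 was picked as the example after its values were seen. The 10 listed regulators had no named probe set and were not analysed here.

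Limma 3.58.1 (R 4.3.3) was used with a term for cell type, 2-sided, and Benjamini-Hochberg adjustment. An analysis of variance is named in the paper, without its factors. Exact permutation tests went through every arrangement of the arrays in Python 3.11.15 with numpy 2.4.6. The correlation coefficients and the adjustment of their p values used scipy 1.17.1. The alternatives comprised quantile normalization, median centring, array weights, a trended prior, a plain t-test (called the methods' t-test), minimum mean levels of 2 and 3, the exclusion of probe sets with several genes, other sets for ranking, and the omission of each array. The fits were tested on simulated data. Sequences and genome coordinates were not used here.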

Additional observations from a re-analysis of the deposited data

How the results depend on the processing

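GSA1 kept its direction under every alternative run, in log2 value and in percentile. Its log2 fold change was 2.76 with array weights and 1.80 after quantile normalization, both calls. With each array left out it was 0.88 to 2.53, and the call came without BSC array 7. The other fits left it at 1.52, with no call. The array weights ran from 0.339 to 6.83, highest for BSC array 5, and their estimate did not fully converge. CHLM ranged from -1.75 to 0.31 with each array left out, turned only without MC array 6 (0.31), and was not called under any alternative. The correlation of GSA1 with CHLM turned to -0.86 after quantile normalization and -0.82 with percentiles, and was 0.02 to 0.67 with each array left out. The CHLM minus GSA1 difference and both percentile differences kept their sign throughout. The cause of these changes was not tested.

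The count of called tetrapyrrole genes was 0 in the methods' t-test, with a trended prior and at a mean of at least 3, and 0 to 2 with each array left out; without BSC array 7 the 2 were GSA1 and AT1G44000. With array weights and after quantile normalization the 1 called was GSA1. Of all probe sets, 114 were called, 41 in the methods' t-test, 885 with array weights, 256 after quantile normalization, 22 at a mean of at least 3, and 90 to 418 with each array left out. The share of calls higher in BSCs was 28.1% in limma, 38.8% with a trended prior, 67.7% with array weights and 80.1% without BSC array 7. At an adjusted p under 0.05 there were 0 probe sets in limma, the methods' t-test and every other setting; unadjusted, limma had 365 under 0.05 and the methods' t-test 515. No paired analysis was possible because the arrays of both cell types share no replicate number, and which BSC and MC arrays came from one protoplast extraction is not given in the sources used here.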
